A study of Mus musculus with 9 samples.

Results

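The Slc25 family encodes mitochondrial solute carriers. Its members were taken as every row of the deposited expression matrix whose symbol is Slc25a followed by a number, and Slc25a20 was not analysed here. This gave 43 of 23231 genes. Of these, 34 had a mean of at least 1 FPKM over all 9 libraries and were tested among 10794 tested genes. FPKM divides fragments by gene length and by library depth, so levels of different genes can be compared per length.

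Mitochondrial carriers sit in the inner membrane and move metabolites, nucleotides, cofactors and ions between cytosol and matrix, usually by exchanging one solute for another. They are nuclear-encoded proteins, and most are imported through the TIM22 translocase. In skeletal muscle the ADP/ATP and phosphate carriers supply substrate to ATP synthase and export its product, and the oxoglutarate and aspartate-glutamate carriers take part in moving reducing equivalents into the matrix.

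Small interfering RNA (siRNA) was electroporated into tibialis anterior muscles of C57BL/6 mice aged 6 months, and RNA was sequenced from the muscle. The groups were 3 libraries with construct 5 against Ubr4, 3 with construct 7 against Ubr4, and 3 controls with a non-targeting siRNA, so all 3 groups were electroporated. Ubr4 encodes a large E3 ubiquitin ligase of the N-degron pathway. The labels give no sex and do not say that the libraries came from separate animals, so p-values measure the spread between these samples, which may be technical. Whole muscle was used, in which fewer cells of a type and less RNA per cell cannot be told apart.

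Ubr4 had 3.61, 3.80 and 2.73 FPKM with construct 5 and 2.25, 2.58 and 3.07 FPKM with construct 7, against 7.82, 10.3 and 9.09 FPKM in controls. Both constructs lay below every control, with adjusted p of 0.0168 for construct 5 and 0.00882 for construct 7 (limma). These calls were lost without control replicate 2 or 3, for construct 5 also without its replicate 1 (adjusted p up to 0.0956), and for construct 7 also without its replicate 2 (adjusted p up to 0.0877). By exact two-sided permutation of library labels p was 0.1 for either construct, which is the lowest possible with 3 against 3, and 0.0119 for both together, the lowest possible with 6 against 3. Depth, inferred from the spacing of low FPKM values, was 29312121 to 45563538 reads, and 3 reads on a 1 kb transcript corresponded to 0.0658 to 0.102 FPKM, a floor for counting error only. Defining skeletal muscle markers summed to at least 58752 FPKM in every library, and brain and liver markers to at most 0.0797 FPKM. With construct 5, macrophage markers summed to 231 to 411 FPKM, against 111 to 182 FPKM with construct 7 and 138 to 203 FPKM in controls. Fibroblast markers summed to 442 to 684 FPKM with construct 5, 280 to 302 FPKM with construct 7 and 351 to 406 FPKM in controls. Both sums were higher in each construct 5 library than in any other library. Slow fibre markers summed to 45.8 to 62.6 FPKM with construct 5, 16.9 to 58.2 FPKM with construct 7 and 23.3 to 29.5 FPKM in controls. All 4 tested slow fibre markers had a log2 change above 0 with construct 5 and none passed. Neutrophil markers summed to 32.7 FPKM in construct 5 replicate 2 and to at most 1.64 FPKM in every other library. Adipocyte marker sums overlapped, at 293 to 377 FPKM with construct 5, 254 to 302 FPKM with construct 7 and 264 to 319 FPKM in controls. All 3 tested adipocyte markers had a log2 change above 0 with construct 5 and none passed. The part of these marker sums in the carrier changes with construct 5 was not tested.

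Levels within the family spanned more than 3 orders of magnitude. Slc25a4, the ADP/ATP carrier of heart and muscle, was the most abundant, followed by the oxoglutarate-malate carrier Slc25a11 and the phosphate carrier Slc25a3. These 3 were the members with a mean of at least 100 FPKM. A further 7 averaged 10 to 100 FPKM, and 24 averaged 1 to 10 FPKM. Among the 34 tested members the highest library exceeded the lowest by a median of 1.54 times. The ratio was under 1.5 for 14 members and over 2 for 8.

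**Figure D1:**
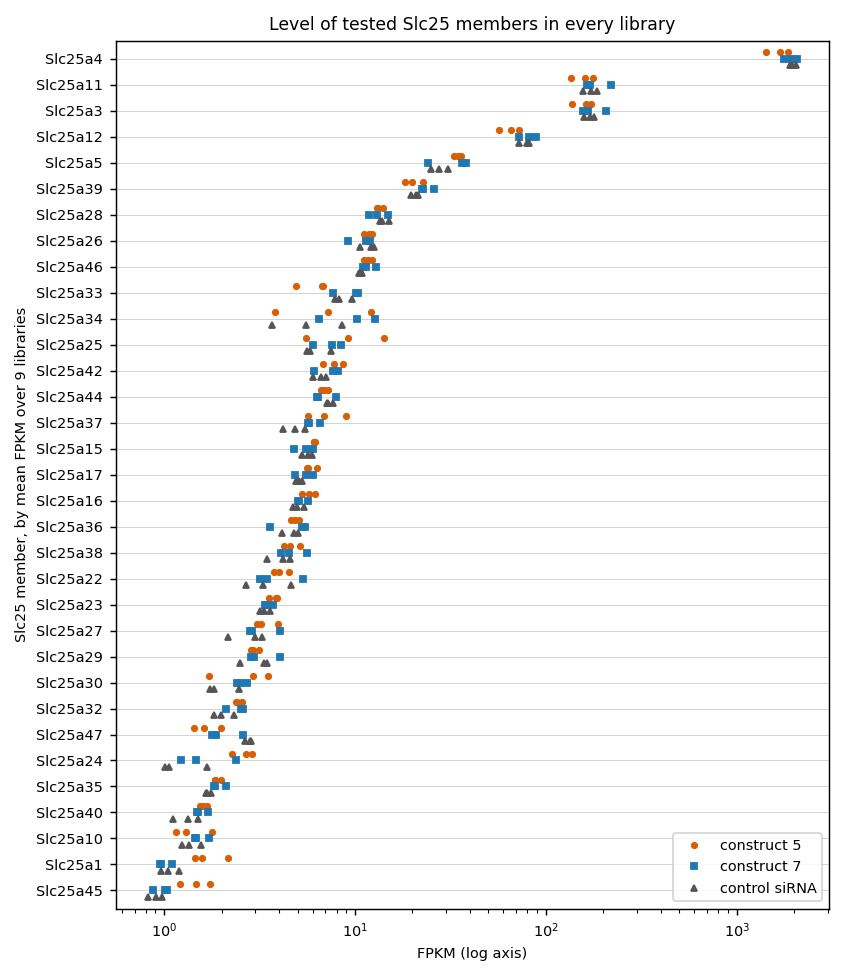
FPKM of 33 of the 34 tested members (rows, by mean level) in every library on a log axis, with construct 5 as circles, construct 7 as squares and control siRNA as triangles. Slc25a4 stands above all others at 1421 to 2070 FPKM, and many members show overlapping groups.

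The summed level of all 43 members was 1960, 2483 and 2282 FPKM with construct 5, 2551, 2373 and 2809 FPKM with construct 7, and 2675, 2562 and 2486 FPKM in controls. Each construct 5 library had a lower sum than any control library, though by a narrow margin at the nearest pair (2483 against 2486 FPKM). Construct 7 and controls overlapped. Total FPKM over all genes also differed, at 478776 to 498691 with construct 5 and 498052 to 532345 in controls. The family sums were not scaled by these totals, so the narrow separation holds for unscaled values only. Slc25a4 made up 72.5%, 74.4% and 74.2% of the sum with construct 5, 75.7%, 75.1% and 73.7% with construct 7, and 76.3%, 76.0% and 76.7% in controls. The share of this one carrier was lower in all 6 Ubr4 siRNA libraries than in any control. Without Slc25a4 the sums overlapped, at 540 to 636 FPKM with construct 5, 592 to 740 FPKM with construct 7 and 579 to 635 FPKM in controls. Shares are bound to sum to 100%, so a lower share of one member raises that of the others.

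With construct 5, 3 of 34 tested members passed an adjusted p of 0.05 against controls (8.82%), while 5.27% of all tested genes did. Slc25a24 and Slc25a45 rose and Slc25a47 fell. Slc25a45 reached the minimum of 1 FPKM only through its construct 5 libraries, so the filter itself depended on that difference. Its call and its place in this count and in the counts of members below carry that limit. With construct 7, 0 members passed, against 0.0556% of all tested genes. An unadjusted p under 0.05 (limma) was reached by 1 member, Slc25a47 (2.94%), against 9.47% of genes. For the mean of both constructs against controls 0 members passed, against 0.00926% of genes. Here 7 members (20.6%) had an unadjusted p under 0.05, against 19.1% of genes. Between constructs 0 members passed, against 1.22% of genes. Again 7 members (20.6%) had an unadjusted p under 0.05, against 23.1% of genes. All 3 calls with construct 5 had adjusted p between 0.049 and 0.0497, close to the threshold, and none was kept when libraries were rescaled by median ratio, where 0 members were called. Over all genes that rescaling left 14 higher and 64 lower calls, against 504 higher and 65 lower calls without it. With 1 library left out, 0 members were called without any 1 control, without construct 5 replicate 1 or 2, or without construct 7 replicate 3. Slc25a24 kept its call without construct 7 replicate 1 or 2, Slc25a45 without construct 5 replicate 3, and Slc25a47 without any of these 3 libraries in turn.

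The family moved with construct 5 much as all genes did. Its median log2 change was 0.12, against 0.13 for all tested genes, and 22 of 34 members lay above 0 (64.7%, against 76.7% of all genes). Relative to the median of all genes, 16 of 34 members were higher. With median-ratio scaling 18 of 34 members lay above 0, against 5658 of 10794 genes, and 4 members changed sign. With quantile normalization 14 of 34 lay above 0, against 5199 of 10794 genes. Fewer lay above than below in both the family and all genes, and 8 members changed sign. With construct 7 the median was 0.09 for the family and 0.02 for all genes. Here 26 members lay above 0 (76.5%, against 57.0% of all genes), and 25 were higher than the all-gene median. Fold values throughout are differences of log2(FPKM + 1), which understate the change of genes near 1 FPKM. The 2 construct comparisons share their control libraries.

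**Figure D2:**
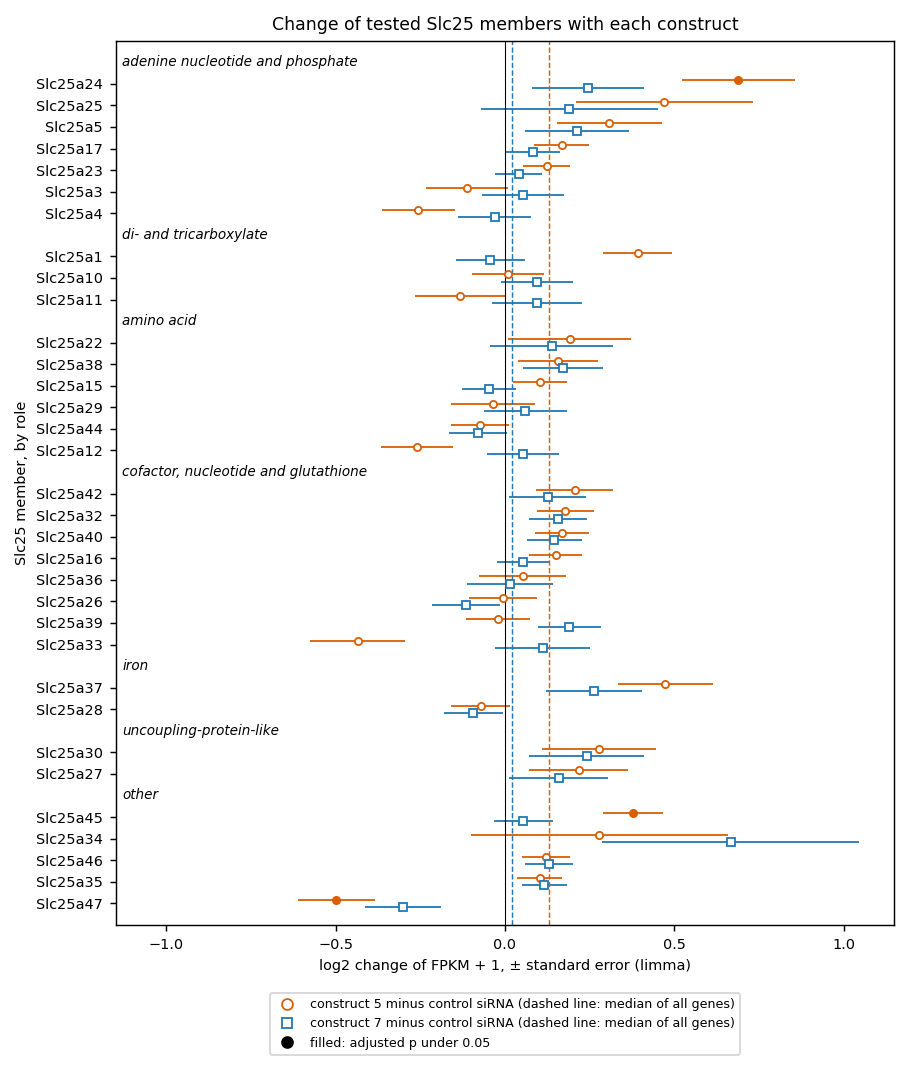
Log2 change of FPKM + 1 with its limma standard error for 33 tested members, grouped by role, with construct 5 minus control as circles and construct 7 minus control as squares. Filled symbols mark adjusted p under 0.05 (Slc25a24, Slc25a45 and Slc25a47, all with construct 5), and the dashed lines mark the medians of all genes at 0.13 and 0.02.

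Counts of members whose libraries did not overlap the controls were also near those of all genes in the upward direction. All 3 construct 5 libraries lay above all controls for 11 of 34 members (32.4%), against 33% of all tested genes. Slc25a45, which passed the filter only through construct 5, is among the 11. Construct 5 libraries lay below all controls for 4 members (11.8%), Slc25a4, Slc25a33 and Slc25a47 among them, against 5.19% of genes. With construct 7, 4 members lay above all controls, Slc25a35, Slc25a37, Slc25a39 and Slc25a46 (11.8%), against 10.5% of genes. Slc25a47 was the only member with construct 7 below all controls (2.94%), against 6.26% of genes. Slc25a35, Slc25a37 and Slc25a46 lay above all controls with both constructs (8.82%, against 8.04% of genes), and Slc25a47 lay below all controls with both (2.94%, against 1.45% of genes).

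Among carriers of adenine nucleotides and phosphate, 7 of 9 members were tested and 1 rose with construct 5. Slc25a24 (ENSMUSG00000040322), a calcium-regulated ATP-Mg/phosphate carrier, had 2.90, 2.69 and 2.25 FPKM with construct 5, 1.23, 2.39 and 1.47 FPKM with construct 7, and 1.01, 1.69 and 1.07 FPKM in controls. Each construct 5 library lay above each control, while construct 7 and controls overlapped. The log2 change with construct 5 was 0.69 (SE 0.166, adjusted p = 0.0497, limma), and with construct 7 it was 0.25 (adjusted p = 0.698). The difference between constructs, -0.44 for construct 7 minus construct 5, did not pass (adjusted p = 0.164). Its reads numbered 102 to 421 per library. The macrophage and fibroblast marker sums given above were also highest with construct 5, and their part in this result was not tested.

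Slc25a4 (ENSMUSG00000031633) had 1421, 1847 and 1694 FPKM with construct 5, 1931, 1781 and 2070 FPKM with construct 7, and 2040, 1948 and 1907 FPKM in controls. Every construct 5 library lay below the controls, and construct 7 overlapped them. The change with construct 5 was -0.26 on the log2 scale (SE 0.108) and did not pass (adjusted p = 0.141). Slc25a5, the more widely expressed ADP/ATP carrier, had 34.8, 35.8 and 33.0 FPKM with construct 5, 24.1, 36.4 and 38.1 FPKM with construct 7, and 27.5, 30.8 and 25.1 FPKM in controls. Construct 5 lay above all controls without passing (log2 change 0.31, adjusted p = 0.198). The phosphate carrier Slc25a3 ranged from 137 to 208 FPKM with overlapping groups. Of the other calcium-regulated ATP-Mg/phosphate carriers, Slc25a25 ranged widely with construct 5, from 5.52 to 14.2 FPKM, and Slc25a23 stayed between 3.17 and 3.88 FPKM over all libraries. The peroxisomal cofactor carrier Slc25a17 ranged from 4.86 to 6.32 FPKM.

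Among di- and tricarboxylate carriers, 3 of 4 members were tested and 0 passed. Slc25a1, which exports citrate, had 1.57, 2.16 and 1.45 FPKM with construct 5, 0.967, 1.10 and 0.949 FPKM with construct 7, and 1.05, 1.19 and 0.958 FPKM in controls. Construct 5 lay above every library of the other groups, which overlapped each other. Its log2 change missed the threshold both with construct 5 against controls (0.39, SE 0.102, adjusted p = 0.0558) and for construct 7 minus construct 5 (-0.44, SE 0.102, adjusted p = 0.0652). Slc25a11 had 135, 177 and 160 FPKM with construct 5, 171, 164 and 219 FPKM with construct 7, and 186, 173 and 156 FPKM in controls, and its groups overlapped. The dicarboxylate carrier Slc25a10 ranged from 1.153 to 1.779 FPKM.

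Of the amino acid carriers, 6 of 9 were tested and 0 passed. Slc25a12, an aspartate-glutamate carrier of the malate-aspartate shuttle, had 56.9, 72.4 and 66.0 FPKM with construct 5, 81.8, 72.6 and 88.5 FPKM with construct 7, and 72.2, 81.58 and 79.998 FPKM in controls. Every construct 7 library lay above every construct 5 library, though by a narrow margin at the nearest pair, and construct 5 overlapped the controls. The log2 change was -0.26 with construct 5 (adjusted p = 0.131) and 0.31 for construct 7 minus construct 5 (adjusted p = 0.139). Slc25a38, a glycine carrier needed for heme synthesis, had 5.14, 4.56 and 4.25 FPKM with construct 5, 5.62, 4.49 and 4.08 FPKM with construct 7, and 4.21, 3.47 and 4.57 FPKM in controls, with overlapping groups. The ornithine carrier Slc25a15 had 6.09 to 6.19 FPKM with construct 5, 4.79 to 6.03 FPKM with construct 7 and 5.30 to 5.93 FPKM in controls, so construct 5 lay just above both other groups. The glutamate carrier Slc25a22, the basic amino acid carrier Slc25a29 and the branched-chain amino acid carrier Slc25a44 had overlapping groups.

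All 9 carriers of cofactors, nucleotides and glutathione were tested, and 0 passed. Slc25a33, a pyrimidine nucleotide carrier, had 4.88, 6.82 and 6.68 FPKM with construct 5, 10.4, 7.71 and 10.1 FPKM with construct 7, and 9.65, 8.25 and 7.85 FPKM in controls. Construct 5 lay below every other library. The log2 change with construct 5 was -0.43 (SE 0.14, adjusted p = 0.0842), and for construct 7 minus construct 5 it was 0.55 (SE 0.14, adjusted p = 0.0779).

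Slc25a39, a glutathione carrier, had 19.9, 22.8 and 18.2 FPKM with construct 5, 22.6, 22.4 and 25.8 FPKM with construct 7, and 21.3, 20.8 and 19.6 FPKM in controls. Construct 7 lay above the controls without passing (log2 change 0.19, adjusted p = 0.577). Its relative Slc25a40 had 1.59, 1.54 and 1.67 FPKM with construct 5, 1.504, 1.489 and 1.69 FPKM with construct 7, and 1.51, 1.34 and 1.11 FPKM in controls. Construct 5 lay just above the controls, and construct 7 overlapped them. Slc25a32, which is linked to folate and flavin transport, had 2.54, 2.39 and 2.40 FPKM with construct 5, 2.58, 2.10 and 2.52 FPKM with construct 7, and 1.83, 2.33 and 1.99 FPKM in controls. Construct 5 lay just above the controls, and construct 7 overlapped them. The coenzyme A carrier Slc25a42, the S-adenosylmethionine carrier Slc25a26, and Slc25a16 and Slc25a36 had overlapping groups, and none passed.

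Both iron carriers were tested. Slc25a37 (mitoferrin 1) had 9.004, 6.866 and 5.70 FPKM with construct 5, 6.55, 5.64 and 5.77 FPKM with construct 7, and 4.82, 4.22 and 5.49 FPKM in controls. All 6 Ubr4 siRNA libraries lay above all 3 controls. The log2 change was 0.47 with construct 5 (SE 0.141, adjusted p = 0.0725) and 0.26 with construct 7 (adjusted p = 0.616). Slc25a28 (mitoferrin 2), the more abundant of the pair, had 14.1, 13.0 and 13.1 FPKM with construct 5, 13.0, 11.8 and 14.9 FPKM with construct 7, and 13.88, 15.02 and 13.56 FPKM in controls, with overlapping groups. Erythroid markers overlapped between groups.

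Of carriers related to uncoupling proteins, Slc25a27 and Slc25a30 were tested and neither passed. Slc25a27 had 3.94, 3.21 and 3.06 FPKM with construct 5, 4.07, 2.81 and 2.88 FPKM with construct 7, and 3.00, 2.15 and 3.27 FPKM in controls, with overlap. Slc25a30 ranged from 1.72 to 3.49 FPKM over all libraries.

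Among the remaining members, 5 of 7 were tested, 1 rose and 1 fell with construct 5. Slc25a45 (ENSMUSG00000024818) had 1.73, 1.47 and 1.22 FPKM with construct 5, 1.01, 1.03 and 0.876 FPKM with construct 7, and 0.901, 0.969 and 0.823 FPKM in controls. Construct 5 lay above every library of the other groups. The mean was 1.47 FPKM with construct 5, 0.971 FPKM with construct 7 and 0.898 FPKM in controls, so the gene passed the filter of 1 FPKM only through the group where it was high. With no filter it was not called. Its log2 change was 0.38 with construct 5 (SE 0.0885, adjusted p = 0.0492), 0.05 with construct 7 and -0.32 for construct 7 minus construct 5 (adjusted p = 0.0922). These levels correspond to about 70.9 to 184 reads per library at GENCODE M21 length, which did not give whole reads for this gene. The marker sums of macrophages and fibroblasts moved with construct 5 here too, and their part was not tested.

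Slc25a47 (ENSMUSG00000048856), known chiefly from liver, had 1.44, 1.63 and 1.98 FPKM with construct 5, 2.605, 1.862 and 1.78 FPKM with construct 7, and 2.81, 2.65 and 2.86 FPKM in controls. All 6 Ubr4 siRNA libraries lay below all 3 controls, by a small margin for the highest of them. The log2 change was -0.50 with construct 5 (SE 0.112, adjusted p = 0.049). It was -0.30 with construct 7 (SE 0.112, adjusted p = 0.431) and -0.40 for the mean of both (adjusted p = 0.107). The difference between constructs did not pass (adjusted p = 0.316). Liver and brain markers were at or near 0 in all libraries, as given above. With construct 5 the macrophage and fibroblast sums lay above the controls, and with construct 7 the fibroblast sums lay below the controls and the macrophage sums overlapped them. Their part was not tested.

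Slc25a46, an outer-membrane member linked to mitochondrial shape, had 11.6, 11.2 and 12.2 FPKM with construct 5, 11.4, 11.1 and 12.9 FPKM with construct 7, and 10.9, 10.7 and 10.4 FPKM in controls. Slc25a35 had 1.85, 1.99 and 1.85 FPKM with construct 5, 2.10, 1.85 and 1.82 FPKM with construct 7, and 1.66, 1.75 and 1.68 FPKM in controls. For both, all Ubr4 siRNA libraries lay above all controls, by a log2 change of 0.10 to 0.13 that did not pass. With quantile normalization the construct 5 change was below 0 for each, and for Slc25a46 also with median-ratio scaling. Slc25a34 had 3.79, 12.2 and 7.25 FPKM with construct 5, 6.51, 10.3 and 12.8 FPKM with construct 7, and 8.52, 5.56 and 3.66 FPKM in controls. It varied most among tested members, with 3.48 times between the highest and the lowest library and overlap of all groups.

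**Figure D3:**
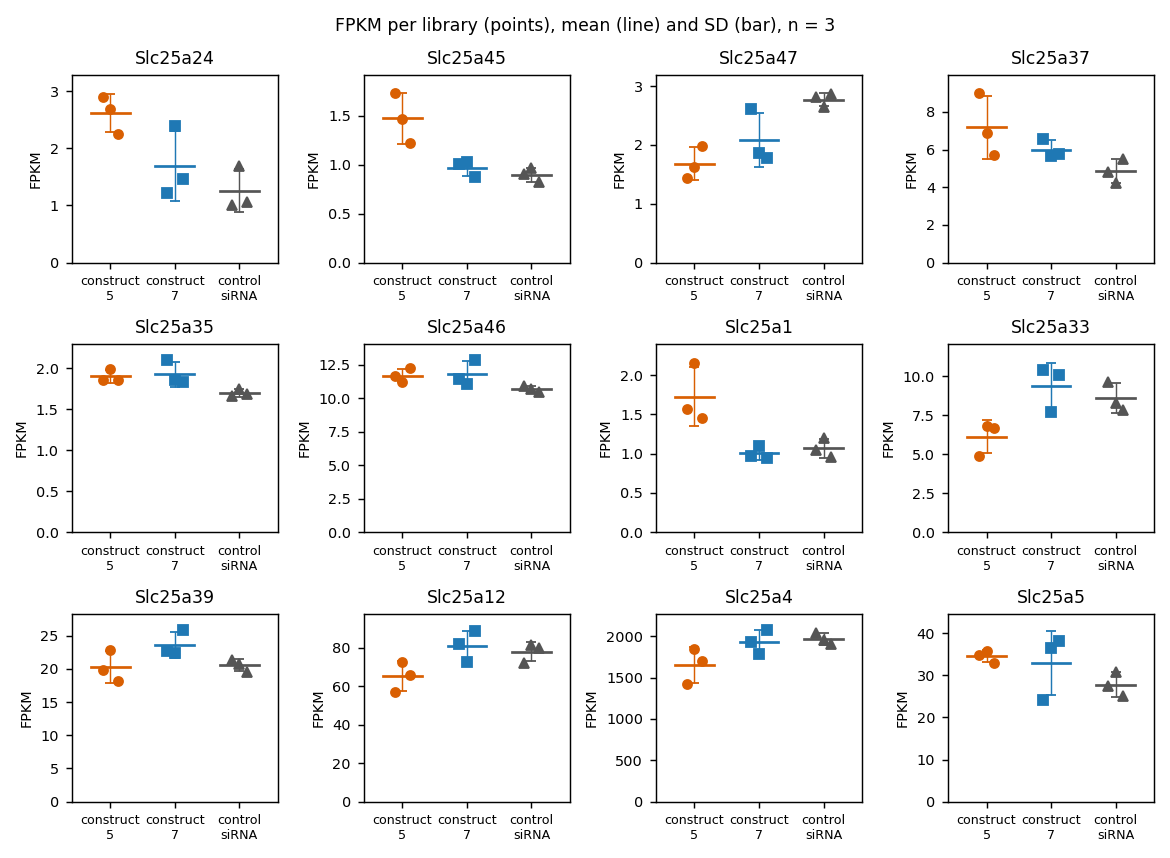
FPKM per library (points), group mean (line) and SD (bar, n = 3) for 12 members, with construct 5, construct 7 and control siRNA from left to right and each axis starting at 0. Slc25a24, Slc25a45 and Slc25a1 are highest with construct 5, Slc25a33 is lowest with construct 5, and Slc25a47 is below all controls with both constructs.

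The constructs were also compared with each other. Construct 7 lay above all construct 5 libraries for 3 members (8.82%), Slc25a12 and Slc25a33 among them, against 3.02% of tested genes. It lay below all construct 5 libraries for 3 members, Slc25a1, Slc25a15 and Slc25a45 (8.82%), against 22.4% of genes. Slc25a45 passed the filter only through construct 5, so its place in this count carries that limit. None of the differences between constructs for these members passed the test, as given above for Slc25a1, Slc25a12, Slc25a33 and Slc25a45. For Slc25a15 the adjusted p was 0.289 (limma).

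Close relatives with a shared role were set against each other within a library, an analysis added after the values had been seen. Slc25a5 stood at 2.45%, 1.94% and 1.95% of Slc25a4 with construct 5, 1.25%, 2.04% and 1.84% with construct 7, and 1.35%, 1.58% and 1.31% in controls. Slc25a37 stood at 64.0%, 52.7% and 43.4% of Slc25a28 with construct 5, 50.4%, 47.7% and 38.7% with construct 7, and 34.7%, 28.1% and 40.5% in controls. Construct 5 lay above the controls for both ratios, and construct 7 overlapped. Slc25a33 stood at 95.7% to 147% of Slc25a36 with construct 5, 190% to 215% with construct 7 and 156% to 202% in controls, with construct 5 below both other groups. The ratios of Slc25a13 to Slc25a12 and of Slc25a40 to Slc25a39 overlapped the controls with both constructs. Over 5 ratios and 20 exact two-sided permutation tests, the lowest Benjamini-Hochberg adjusted value was 0.268. With 3 against 3 libraries the lowest possible p by permutation was 0.1, above the threshold used here. Tests of either construct against controls, or between constructs, therefore could not pass at any separation, and they decide nothing about these ratios. For both constructs together, 6 against 3, the lowest possible p by permutation was 0.0119. The lowest reached was 0.0357, unadjusted, for Slc25a37 against Slc25a28. With adjustment over all 20 tests a single ratio at 0.0119 could not pass by itself. The tests of both constructs together therefore also decide nothing about a single ratio. A ratio shows unequal change, not which of the genes moved.

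**Figure D4:**
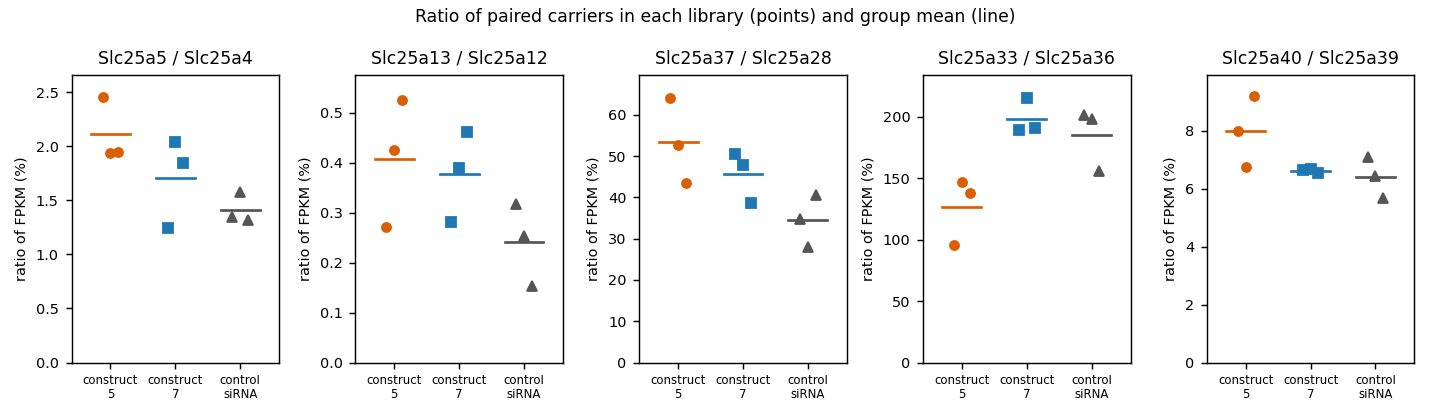
Level of one carrier as a percent of its relative in each library (points) with the group mean (line), for 5 pairs and with axes starting at 0. The Slc25a5 and Slc25a37 ratios are higher with construct 5 than in any control library, and the Slc25a33 ratio is lower.

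Promoter windows from RefSeq, covering 250 bases before to 50 bases after the gene start on GRCm38.p6, were matched to 33 of 43 members. This build differs from the mm9 of the expression table, so the windows were matched by symbol. Printed here are the windows of the 3 members called with construct 5, none of which holds any of the 6 motifs searched, and of Slc25a33 and Slc25a1, the members with the smallest p between constructs, which hold the palindrome CACGTG. The set was chosen after the values were seen. Capitals mark a motif match.
Slc25a24, chr3:109122899-109123198, plus strand: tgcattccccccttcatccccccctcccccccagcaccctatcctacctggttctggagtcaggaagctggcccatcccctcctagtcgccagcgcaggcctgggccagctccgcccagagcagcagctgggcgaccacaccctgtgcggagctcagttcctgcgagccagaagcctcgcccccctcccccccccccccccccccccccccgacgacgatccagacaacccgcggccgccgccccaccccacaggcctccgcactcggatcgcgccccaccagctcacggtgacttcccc
Slc25a45, chr19:5877572-5877871, plus strand: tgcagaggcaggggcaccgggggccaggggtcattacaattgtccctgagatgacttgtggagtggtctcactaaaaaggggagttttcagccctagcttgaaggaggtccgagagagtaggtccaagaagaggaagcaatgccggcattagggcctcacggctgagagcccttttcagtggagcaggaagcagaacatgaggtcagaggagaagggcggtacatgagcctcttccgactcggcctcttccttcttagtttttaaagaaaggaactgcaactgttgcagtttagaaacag
Slc25a47, chr12:108850879-108851178, plus strand: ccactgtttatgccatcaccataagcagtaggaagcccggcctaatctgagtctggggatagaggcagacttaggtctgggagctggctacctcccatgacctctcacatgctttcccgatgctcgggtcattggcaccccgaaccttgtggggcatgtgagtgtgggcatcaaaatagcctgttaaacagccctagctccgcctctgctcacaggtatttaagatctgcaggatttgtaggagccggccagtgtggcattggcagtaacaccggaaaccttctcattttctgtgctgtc
Slc25a33, chr4:149774218-149774517, minus strand: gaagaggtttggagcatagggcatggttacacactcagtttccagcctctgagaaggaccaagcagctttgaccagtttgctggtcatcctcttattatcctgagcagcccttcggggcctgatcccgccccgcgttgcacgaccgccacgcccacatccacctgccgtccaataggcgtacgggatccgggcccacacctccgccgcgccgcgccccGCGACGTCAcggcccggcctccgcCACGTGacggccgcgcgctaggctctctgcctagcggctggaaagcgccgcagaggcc
Slc25a1, chr16:17928170-17928469, minus strand: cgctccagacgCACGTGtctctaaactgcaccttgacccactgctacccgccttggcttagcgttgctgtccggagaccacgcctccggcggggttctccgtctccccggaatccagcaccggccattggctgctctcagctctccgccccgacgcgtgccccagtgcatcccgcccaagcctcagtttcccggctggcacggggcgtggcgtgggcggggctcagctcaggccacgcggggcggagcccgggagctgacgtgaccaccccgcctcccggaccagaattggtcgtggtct

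In the Slc25a33 window CACGTG, the core E-box, begins 8 bases before the start. A match to TGACNNNGC, the antioxidant response element core, begins 32 bases before it, read on the other strand as GCGACGTCA. In the Slc25a1 window CACGTG begins 239 bases before the start. Both strands were searched with 6 motifs. CACGTG was held by 7 of 33 members (21.2%), against 8.09% of all 27025 genes with a window, and TGACNNNGC by 8 (24.2%), against 14.0%. The cAMP response element TGACGTCA was held by 2 (6.06%), against 2.03%. The palindromic core site of NRF1 was held by 3 (9.09%), against 7.00%, and AAGGTCA, a site of estrogen-related receptors, by 1 (3.03%), against 5.38%. TGATGNAAT, an amino acid response element core, was held by 0 members, against 1.084%. A match describes the letters in the window.

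The 9 members under a mean of 1 FPKM were not tested. Slc25a14 was the highest of them at 0.502 to 0.803 FPKM. Slc25a13, the aspartate-glutamate carrier more typical of liver, had 0.154, 0.308 and 0.346 FPKM with construct 5, 0.230, 0.282 and 0.407 FPKM with construct 7, and 0.228, 0.207 and 0.123 FPKM in controls. Slc25a43 and Slc25a2 stayed between 0.0261 and 0.17 FPKM. The glutamate carrier Slc25a18 was listed at 0 in 2 control libraries, and its highest value was 0.109 FPKM. Slc25a21, Slc25a31, Slc25a41 and Slc25a48 were each listed at 0 in at least 1 library and did not exceed 0.055 FPKM.

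Genes that act beside the carriers were read from lists, whose counts are to be read against the 5.27% of all genes called with construct 5 (504 higher and 65 lower) and the shares given above for the other comparisons. Of 4 tested relatives under other symbols (Ucp2, Ucp3, Mtch1 and Mtch2), 0 passed in any comparison. The 18 tested genes of other mitochondrial transport include Sfxn1 and Ccdc109b, which passed the filter of 1 FPKM only through construct 5. Of the 18, 1 rose with construct 5. This was Slc24a6, also called Slc8b1, the mitochondrial sodium-calcium exchanger, with 4.45, 4.08 and 3.13 FPKM with construct 5, 3.16, 3.12 and 2.82 FPKM with construct 7, and 2.78, 2.38 and 2.50 FPKM in controls. All 6 Ubr4 siRNA libraries lay above the controls, and the log2 change was 0.45 with construct 5 (adjusted p = 0.0491) and 0.18 with construct 7 (adjusted p = 0.629). The construct 5 call was lost with median-ratio scaling (adjusted p = 0.0892). Of 12 tested genes of carrier import, 0 passed against controls. Between constructs 1810026J23Rik, also called Timm29, was lower with construct 7, at 19.0 to 22.9 FPKM, against 29.7 to 34.6 FPKM with construct 5 (log2 change -0.54, adjusted p = 0.0391), a call lost with median-ratio scaling (adjusted p = 0.0697). Its controls had 25.4, 29.8 and 28.2 FPKM. Construct 7 lay below all controls without passing (log2 change -0.37, adjusted p = 0.308, limma), and construct 5 overlapped them. Of 10 tested phosphotransfer and shuttle enzymes, 1 fell with construct 5 and the median log2 change was -0.26, against 0.13 for all genes. The gene was Ak3, a matrix adenylate kinase, with 14.1, 20.3 and 16.4 FPKM with construct 5, 25.4, 23.9 and 25.6 FPKM with construct 7, and 24.001, 24.03 and 26.98 FPKM in controls (log2 change -0.55, adjusted p = 0.0445). Construct 5 lay below every other library, and the call was kept with median-ratio scaling (adjusted p = 0.0448). Both adjusted p lie close to the threshold, and the other settings were not read for Ak3. Without control replicate 1, 2 or 3, all-gene calls with construct 5 numbered 4, 4 and 2.

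**Figure D5:**
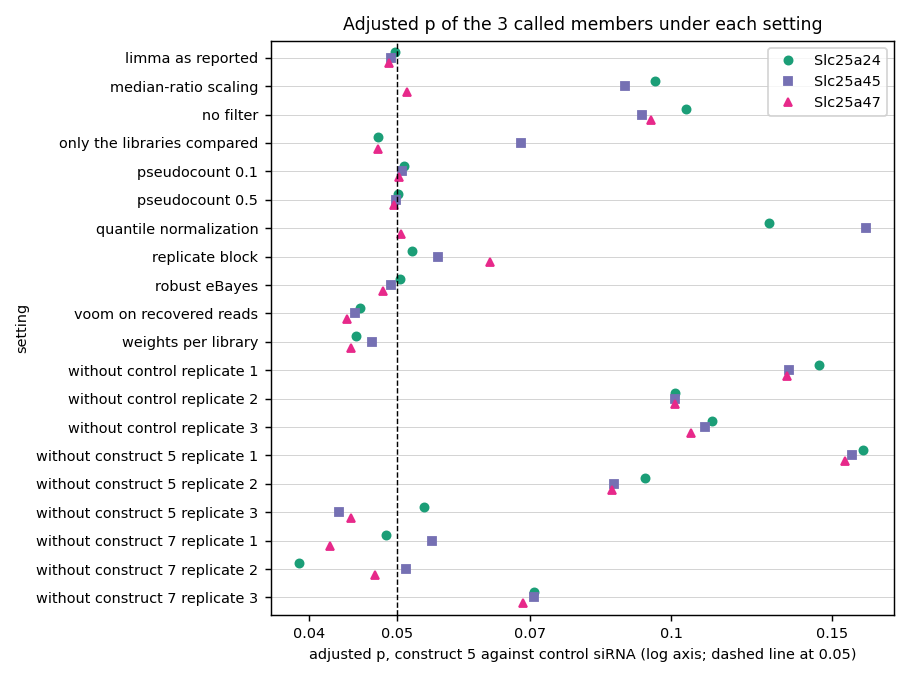
Adjusted p of the construct 5 change for Slc25a24, Slc25a45 and Slc25a47 under each setting (rows) on a log axis, with a dashed line at 0.05. Values lie on both sides of the line, from 0.039 to 0.164, so each call changes with the setting.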

How the data were processed

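RNA of 9 mouse muscle libraries was measured by RNA-seq. The authors deposited 1 table of FPKM values for 23231 genes. The submitters' processing notes name BWA, STAR, HTSeq and mm9, and their roles and versions are not given in the sources used here. A linear model of log2(FPKM + 1) was fitted to the 9 libraries together (limma 3.58.1, R 4.3.3, eBayes with trend) on genes with a mean of at least 1 FPKM, and Benjamini-Hochberg adjusted p-values under 0.05 over all 10794 genes were called. The deposited FPKM were taken as they stand.

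Depth was inferred from the spacing of low FPKM values and GENCODE M21 lengths: 72.8% of 51721 values between 0.5 and 50 reads were whole within 0.1 reads, and 20 members gave whole reads. No source gives the strand, which leaves overlapping genes uncertain. Scripts used Python 3.11.15, numpy 2.4.6, pandas 2.3.3, scipy 1.17.1 and matplotlib 3.10.9, and the fit was tested on simulated data.

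Members and gene lists were chosen with earlier results of these data known. Of the members, 1 is counted but not reported here. Values in every library are given for members called in any comparison, members with both constructs on one side of all controls, the most abundant member of each role, and the 10 smallest p per construct. Of neighbouring lists, called genes were named. The alternatives were quantile normalization, median-ratio scaling, a minimum of 5 FPKM or none, pseudocounts of 0.1 and 0.5, only the libraries compared, a replicate block, robust spread, weights per library, each library left out in turn and, added after seeing the data, voom on recovered reads.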

Additional observations from a re-analysis of the deposited data

How the results depend on the processing

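Over all genes the calls with construct 5 numbered 569, and 78 with median-ratio scaling, 86 with quantile normalization, 11 with a replicate block and 5 with no filter. The number of members called with construct 5 was 3, and it was 0 with a filter at 5 FPKM, no filter, a pseudocount of 0.1, median-ratio scaling, quantile normalization or a replicate block. It ranged from 0 to 4 when a library was left out, and was 0 without any 1 control, without construct 5 replicate 1 or 2, or without construct 7 replicate 3. Slc25a24 was called in 5 of 19 alternatives, Slc25a45 in 5 of 19 and Slc25a47 in 8 of 19, and none of the 3 changed sign. The filter at 5 FPKM leaves out all 3, and the cause of the other losses was not tested. Construct 7 minus construct 5 gave 1 member with the replicate block (Slc25a1) and 0 to 1 with a library left out (Slc25a33, without construct 7 replicate 2). Pairs of libraries with the same replicate number correlated from -0.36 to 0.31, with 2 of 9 above 0.1, and pairs with different numbers from -0.57 to 0.52. Deviations from means of 3 libraries are bound to each other, so these correlations cannot decide whether the numbers pair the libraries. Between constructs all-gene calls numbered 132, and 217 with the replicate block. Ubr4 with no filter had log2 changes of -1.20 with construct 5 (adjusted p = 0.0523), -1.47 with construct 7 (adjusted p = 0.0976) and -1.33 for both (adjusted p = 0.0677, limma), and -1.29 to -1.09, -1.56 to -1.38 and -1.43 to -1.25 with a library left out. The Ubr4 call with construct 5 was lost without control replicate 2 or 3 or construct 5 replicate 1 (adjusted p up to 0.0956), with construct 7 without control replicate 2 or 3 or construct 7 replicate 2 (up to 0.0877), and for both without control replicate 3 (0.0545). Of 928 values of single named members under alternatives, 872 kept direction and side of the threshold, most of them of results not called to begin with. All 39 values that lost the call were of the 3 construct 5 calls given above, and 4 values gained it. A further 13 values, none called, changed sign. With construct 7 these were Slc25a1 (-0.082 to 0.000345 with a library left out), Slc25a4 (0.000822 with weights, -0.083 to 0.025), Slc25a11 (-0.033 to 0.17) and Slc25a12 (-0.013 to 0.13). With construct 5 they were Slc25a34 (-0.077 to 0.65), Slc25a39 (-0.10 to 0.053), Slc25a35 (-0.072), Slc25a40 (-0.0083) and Slc25a46 (-0.0022) with quantile normalization, and Slc25a46 (-0.014) with median-ratio scaling. The comparison of both constructs has no separate value for only the libraries compared. Depth limits the members near or under 1 FPKM.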
